A study of Drosophila melanogaster with 12 samples.

Results

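The RNA of Drosophila melanogaster Schneider 2 (S2) cells that had been kept without serum and then given only vehicle was measured by RNA-seq in 3 libraries, of 12 samples in the series. S2 is an established male line grown from late Oregon-R embryos that has features of embryonic macrophages, so its transcriptome can be read as that of a blood-like cell, but of 1 line only and of cells adapted to culture. The cells were kept for a day in Schneider's medium without serum and then for 4 hours in vehicle, a HEPES buffer of 25 mM and pH 8.2. Total RNA was depleted of ribosomal RNA and sequenced, and the reads were counted per gene. All genes of the count table were described, which were 10287 of the 17559 genes in the deposited gene sheet. The libraries are named V1, V2 and V3 after the order of their columns, which carry no replicate number. Nothing in the sources used here says that they came from separate cultures, so the spread between them may be technical.

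The libraries held 8910251, 8125856 and 10256535 counts. Levels are given as CPM, the share of a library's counts that fell on a gene scaled to 1000000, and where genes are compared with each other as CPM per kb of exon, since a long RNA yields more reads than a short one. A gene was said to have RNA at 1 CPM or more in all 3 libraries, which was about 8 to 10 counts in each. Every listed gene had at least 6 counts in at least 1 of the 6 libraries in the table. If the list was filtered this way, a gene that is not in it had at most 5 counts in any library, or 0.487 to 0.615 CPM in these 3. Such genes are described as not in the count table, not as absent.

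By this rule 8540 genes had RNA, or 48.6% of the gene sheet, and 7760 of them were among the 13918 protein-coding genes. The median listed gene stood at 26.0, 25.6 and 26.2 CPM in V1, V2 and V3. RNA was spread over many genes: the 10 most abundant took 9.43% ± 0.37 of the counts (SD, n = 3), and 473, 449 and 481 genes were needed to reach 50% of them. On average 138 genes stood at 1000 CPM or more and 2184 at 100 CPM or more.

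A cell that grows and secretes spends much of its messenger RNA on ribosomes, translation factors, cytoskeleton and chaperones, and these groups led the table. The large ribosomal RNA of the mitochondrion, mt:lrRNA, had the most counts of any gene, at 35530, 39311 and 35616 CPM in V1, V2 and V3. It was followed by snRNA:7SK, the RNA that holds the elongation factor P-TEFb inactive, at 9472 ± 504 CPM (SD, n = 3). The first protein-coding genes were EF2, which moves the ribosome along the messenger, at 8291, 8238 and 8385 CPM, and Ef1alpha48D, which brings aminoacyl-tRNA to it, at 7772, 7596 and 7814 CPM. The cytoplasmic actin Act5C stood at 6484, 6289 and 6314 CPM. The 3 libraries agreed closely on these 3 messengers, whose shares of counts did not overlap one another.

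**Figure D1:**
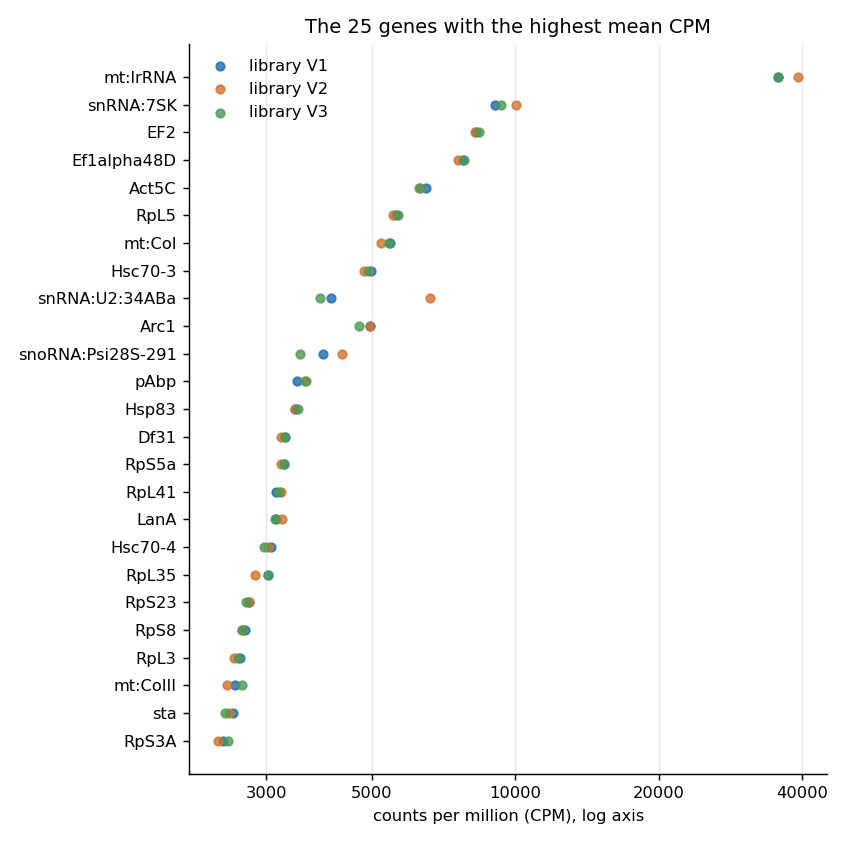
CPM (log axis) in each of the 3 vehicle libraries, 1 point per library, for the 25 genes with the highest mean. The points of a gene nearly coincide for the messengers, with EF2 between 8238 and 8385 CPM, whereas snRNA:U2:34ABa ran from 3899 to 6631 CPM.

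The rest of the leading 25 had recognizable roles. Hsc70-3, the chaperone of the endoplasmic reticulum also known as BiP, stood at 4899 ± 86.4 CPM, and the cytosolic chaperones Hsp83 and Hsc70-4 at 3464 ± 25.1 and 3023 ± 51.1 CPM (SD, n = 3 each). Arc1, whose protein forms capsids and descends from a retrotransposon, reached 4964, 4954 and 4706 CPM, and pAbp, which coats poly(A) tails, 3488, 3629 and 3628 CPM. Df31, a chromatin decondensation factor, stood at 3269 ± 33.0 CPM and LanA, a laminin chain of basement membranes, at 3174 ± 63.3 CPM. The respiratory chain genes mt:CoI and mt:CoIII, both read from mitochondrial DNA, stood at 5377 ± 125 and 2580 ± 94.9 CPM. Apart from mt:lrRNA and snRNA:7SK, 2 small RNAs were in this group, snRNA:U2:34ABa of the spliceosome and snoRNA:Psi28S-291, at 4876 ± 1523 and 3939 ± 399 CPM. Cytosolic ribosomal protein genes made up 9 of the 25.

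Per kb of exon the order changed, and 11 of the 15 highest protein-coding genes were ribosomal protein genes. RpL41 was highest, at 9846, 10085 and 9990 CPM per kb, then RpL39 at 6424, 6250 and 6055 and RpL35 at 4131, 3875 and 4126. None of these 3 overlapped its neighbor in the order. Next in the order, mt:CoI, RpLP2, RpL21, mt:CoIII and RpS23 formed a chain in which neighbors overlapped, with means from 3501 down to 3172 CPM per kb. RpS27A, EF2, RpL23 and tsr, which encodes the actin-severing protein cofilin, also overlapped in a chain, with means from 2718 to 2671 CPM per kb, and RpS25 and RpL36A closed the 15 at 2514 and 2356. Exon lengths join every annotated exon of a gene, so a gene with long rarely used exons is understated: RpL5 had 3835 bp and 1465 CPM per kb, although it led the family by CPM at 5618 ± 72.8. For 218 listed genes, Ef1alpha48D among them, no length was matched.

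As a class, the cytosolic ribosomal protein genes took 12.59%, 12.57% and 12.56% of the counts in V1, V2 and V3. RNA was found for 85 of 93 annotated members, beside 55.8% of all protein-coding genes. Many genes of this class start transcription within a run of pyrimidines, the TCT element, rather than at the usual initiator. The letters TCTTT were found on the coding strand within 20 bases of the annotated start in 36 of the 80 members with RNA and an exon length (45.0%), in 5.79% of the 501 other genes at 100 CPM per kb or more, and in 4.74% of all 13684 protein-coding genes examined. The starts of 6 of the most abundant such genes are printed to let the shared letters be seen, from 15 bases before the annotated start to 15 bases from it on, 5′ to 3′ on the coding strand, from the RefSeq reference (dm6), with TCTTT in capitals.
RpS27A (chr2L:10408337-10408366, + strand): cacgctgtgtgtgtgtTCTTTCTTTccttt
RpS25 (chr3R:11216273-11216302, - strand): ggccgtttccgccctccaTCTTTctgcatt
RpS5a (chrX:17148250-17148279, - strand): cacactgccgtaacatgtTCTTTttcaggc
RpL13A (chr3R:5624459-5624488, + strand): gtcaacgcaacttccgcctTCTTTccgtgc
RpL15 (chr3L:27267240-27267269, + strand): gtgatccaactcattgcttcctTCTTTtgg
RpL40 (chr2L:4227684-4227713, + strand): tcggcggcggccacactcTCTTTtcccttt
In these genes the RNA stood at 2718 ± 105, 2514 ± 36.2, 2348 ± 19.1, 2152 ± 55.5, 2040 ± 54.5 and 1963 ± 24.2 CPM per kb in the order shown (SD, n = 3). The letters are a match to the reference sequence and were not tested for function, and the annotated start need not be the one used in these cells.

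Most members of other housekeeping groups had RNA as well, beside 55.8% of all protein-coding genes, and the leading members are named by CPM. The mitochondrial ribosomal proteins had RNA in 72 of 73 members, took 0.203% of counts and had mRpL28 highest at 92.1 CPM. Proteasome subunits had RNA in 33 of 47 (70.2%), led by Prosalpha2 at 268 CPM. Subunits of the vacuolar ATPase, which acidifies lysosomes, had RNA in 22 of 33 (66.7%), led by Vha16-1 at 1993 CPM. These 2 shares were not far above that of all protein-coding genes. All 7 listed translation elongation factors had RNA, with Ef1gamma at 1933 ± 17.1 and eIF-5A at 1822 ± 45.5 CPM, but Ef1alpha100E, the second gene for elongation factor 1 alpha, stood at 1.69 ± 0.47 CPM. Among 11 actin and tubulin pathway genes 9 had RNA, with Act42A at 2016 ± 56.5 and alphaTub84B at 1956 ± 33.1 CPM. The testis tubulin betaTub85D was not in the count table and the maternal alphaTub67C stood at 0.598 ± 0.370 CPM. All 12 glycolysis enzymes had RNA, from Pfk at 61.7 CPM to Ald at 502 CPM.

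Of 18 heat shock genes 13 had RNA, beside 55.8% of all protein-coding genes. Besides the constitutive chaperones, Hsp23 stood at 1588, 1514 and 1562 CPM, which exceeded the other small heat shock genes Hsp26 and Hsp27 also per kb of exon, at 1758 CPM per kb against 203 and 91.7. Hsp68 stood at 243 ± 1.85 CPM. The 6 inducible Hsp70 copies ranged from 0.339 to 14.6 CPM, but they are nearly identical, so their counts could have been split or lost. Hsp22 was not in the count table.

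Hemocytes, the blood cells of the fly, comprise plasmatocytes, which are macrophages, crystal cells, which carry the melanization enzymes, and lamellocytes, which encapsulate parasites. Among 14 plasmatocyte markers 9 had RNA, beside 55.8% of all protein-coding genes, with a median over all 14 of 30.9 CPM. Collagen IV, laid down by plasmatocytes, took the most counts: vkg stood at 526, 520 and 546 CPM and Cg25C (Col4a1) at 416, 420 and 437 CPM. The scavenger receptor crq, which binds apoptotic cells, stood at 263, 263 and 270 CPM, and the engulfment receptor drpr at 103, 96.9 and 97.7 CPM. The secreted Pxn (peroxidasin), Ppn (papilin) and Hml (hemolectin, a clotting protein) were lower, at 70.7 ± 1.23, 46.7 ± 1.43 and 29.3 ± 1.00 CPM. Per kb of exon, crq stood at 93.2, vkg at 81.6 and Cg25C at 68.9, and Hml, with long exons, stood at 2.49 beside eater, a receptor for bacteria, at 2.42. The plasmatocyte markers He, Sr-CI and NimC1 and the transcription factor gcm were not in the count table. The label of a macrophage-like line was thus met in part: collagen IV and drpr had RNA but are also used outside blood, and several surface markers that define plasmatocytes in the animal had no value.

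**Figure D2:**
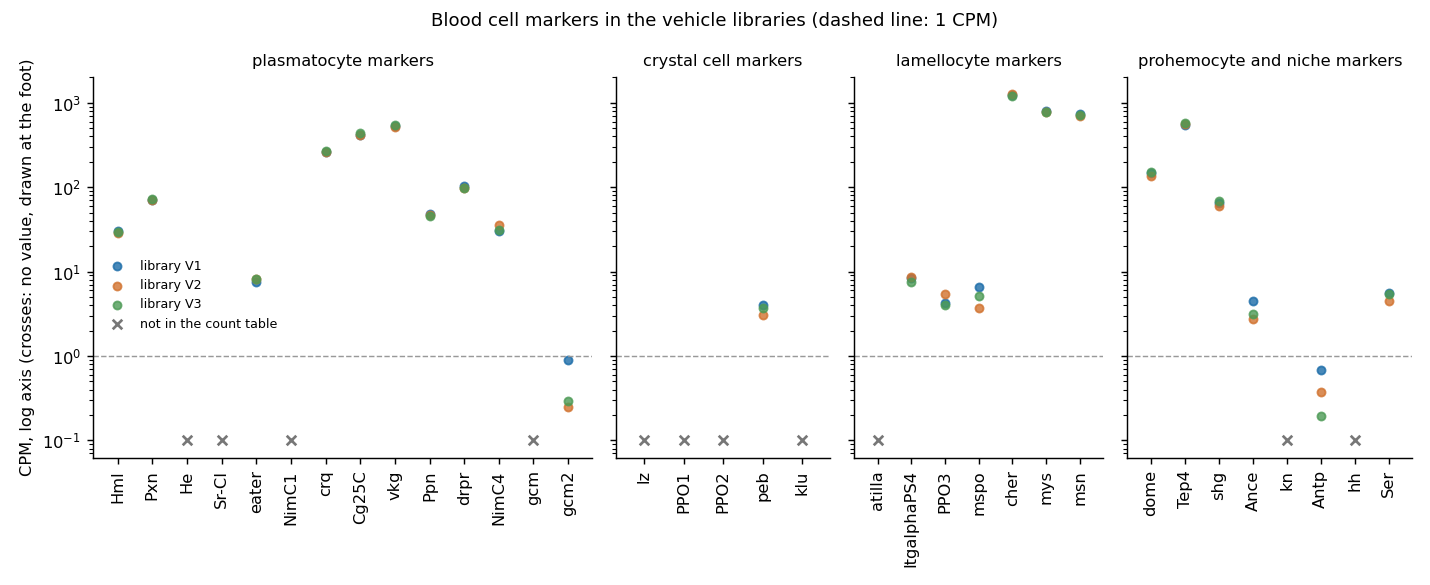
CPM (log axis) in each vehicle library for markers of 4 hemocyte classes, 1 point per library, with the dashed line at 1 CPM and crosses for genes not in the count table. Plasmatocyte genes such as vkg (520 to 546 CPM) were well above the line, whereas 4 of the 5 crystal cell markers had no value.

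Crystal cell markers were nearly all without a value, and lamellocyte markers were mixed. Of 5 crystal cell markers, lz, the factor that specifies these cells, the prophenoloxidases PPO1 and PPO2, and klu were not in the count table, and peb stood at 4.04, 3.08 and 3.70 CPM. Of 7 lamellocyte markers 6 had RNA, but they fell into separate ranges. atilla was not in the count table, and ItgalphaPS4, PPO3 and mspo stood at 8.22 ± 0.57, 4.56 ± 0.75 and 5.09 ± 1.41 CPM. The filamin gene cher, the integrin beta chain mys and the kinase msn stood at 1237 ± 21.4, 788 ± 5.89 and 714 ± 16.5 CPM, and these 3 genes too are used widely outside blood. Among 8 prohemocyte and niche markers 5 had RNA, beside 55.8% of all protein-coding genes. Tep4, a complement-like protein, stood at 556 ± 13.7 CPM, the cytokine receptor dome at 144 ± 7.99 CPM, shg (E-cadherin) at 64.5 ± 4.00 CPM, and Ance, a peptidase, at 3.44 ± 0.93 CPM. Of the niche markers, the Notch ligand Ser stood at 5.61, 4.43 and 5.46 CPM and Antp at 0.413 ± 0.242 CPM, and kn and hh were not in the count table.

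The transcription factors that specify blood were partly present. The GATA factor srp, needed for all hemocytes, stood at 192, 186 and 192 CPM, its cofactor ush at 311, 275 and 307 CPM and zfh1 at 104, 91.9 and 91.8 CPM. Stat92E, the factor of the JAK/STAT pathway, stood at 510 ± 12.4 CPM and jumu at 262 ± 3.22 CPM. In all, 7 of 12 blood transcription factors had RNA, a share close to the 55.8% of all protein-coding genes. Among the others, gcm2 stood at 0.479 ± 0.364 CPM. The Hml promoter is shown because Hml is the common driver of hemocyte expression in flies. Its 250 bases before the annotated start (dm6, chr3L:13845804-13846053, + strand) held 1 match to the GATA letters GATAAG, in capitals.
Hml: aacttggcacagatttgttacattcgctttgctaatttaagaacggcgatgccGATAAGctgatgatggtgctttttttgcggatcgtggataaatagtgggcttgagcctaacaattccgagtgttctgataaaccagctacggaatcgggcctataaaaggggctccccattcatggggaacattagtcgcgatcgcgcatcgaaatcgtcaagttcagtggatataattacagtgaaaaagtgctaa
GATAAG was also searched on either strand between 250 bases before and 50 bases from the start on. It was found in 5 of the 9 plasmatocyte markers with RNA and in 19.0% of all protein-coding genes. A vehicle ATAC-seq peak, which marks open DNA, lay within 1 kb of the start in 7 of these 9 markers, but not in Hml. Such a peak was found for 43.8% of the 13684 protein-coding genes examined and for 77.1% of those at 10 to 100 CPM per kb. The share in the markers was thus not particular to them.

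The receptors with which hemocytes take up particles were divided. Of 27 phagocytic receptor genes 12 had RNA, beside 55.8% of all protein-coding genes. Another 13 were not in the count table, namely NimC1 to NimC3, NimA, all 5 NimB genes, Sr-CI to Sr-CIII and Tep1. Besides crq and drpr, Dscam1, an immunoglobulin receptor with many splice forms, stood at 492 ± 25.7 CPM, Mcr, a complement-related protein, at 233 ± 2.64 CPM, the CD36 relative pes at 170 ± 10.5 CPM, Tep2 at 164 ± 10.9 CPM and NimC4 at 32.4 ± 3.00 CPM. eater stood at 7.63, 8.12 and 8.19 CPM.

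Basement membrane genes took many counts. Of 12 genes 11 had RNA, beside 55.8% of all protein-coding genes. The 11 with an exon length (all but trol, perlecan) had a median of 81.6 CPM per kb. The median was 20.1 CPM per kb over the 6184 protein-coding genes with RNA on the 4 large autosome arms. LanA stood at 271 CPM per kb of exon, the partner chains LanB1 and LanB2 at 99.3 and 122, the collagen-binding BM-40-SPARC at 856 and Tig (tiggrin, an integrin ligand) at 125. In contrast Ndg, nidogen, which links laminin to collagen IV, stood at 0.898, 0.492 and 0.0975 CPM.

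Fly immunity runs through the Toll and Imd pathways, which act through Rel-type factors and drive antimicrobial peptide genes. All 11 Toll pathway genes and all 12 Imd pathway genes had RNA, beside 55.8% of all protein-coding genes. The Toll ligand spz stood at 408 ± 12.5 CPM, the recognition protein PGRP-SA at 248 ± 5.51, the factor dl at 192 ± 7.38, its inhibitor cact at 178 ± 5.02, the receptor Tl at 86.4 ± 0.65 and Dif at 37.0 ± 1.56. The Imd factor Rel stood at 465 ± 16.5 CPM, the IKK gamma subunit key at 152 ± 5.41, the kinase Tak1 at 108 ± 3.60 and the receptor PGRP-LC at 59.9 ± 3.28. Of 14 antimicrobial peptide genes 13 had RNA without any added microbe. DptB stood at 247, 268 and 248 CPM, AttD at 185, 175 and 181, AttB at 114, 118 and 123, Drs at 95.1, 96.9 and 94.2, and Dpt at 73.4, 65.1 and 74.6, while Def stood at 3.79 ± 0.88 and AttC at 0.947 ± 0.401. In the first 5 of these the libraries lay close together, whereas in Def and AttC the SD was a large part of the mean. Per kb of exon, DptB stood at 566, AttD at 243, Dpt at 143, CecA1 at 142 and AttB at 135 CPM per kb. In the JAK/STAT pathway 6 of 7 genes had RNA, with the inhibitor Socs36E at 224 ± 7.29 and the kinase hop at 84.1 ± 2.11, the cytokines upd2 and upd3 at 6.76 ± 0.32 and 9.11 ± 0.35, and os (upd1) not in the count table.

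Serum was absent, so the genes through which the cells sense insulin and amino acids set the baseline for the series. Insulin acts on InR, whose signal runs through chico, PI3K and Akt1 to foxo and TOR. All 17 genes of this list had RNA, beside 55.8% of all protein-coding genes. InR stood at 265, 254 and 250 CPM, its substrate chico at 58.1 ± 4.32, the PI3K subunits Pi3K92E and Pi3K21B at 221 ± 7.86 and 135 ± 2.26, Akt1 at 246 ± 5.05 and the factor foxo at 42.7 ± 1.47. Of the TOR branch, S6k stood at 277 ± 3.50, Tor at 165 ± 3.61, rictor at 114 ± 6.29, raptor at 76.3 ± 2.10, gig (TSC2) at 73.6 ± 1.15 and Rheb at 38.9 ± 3.02. Thor, the 4E-BP that restrains cap-dependent translation, stood at 3.37, 6.28 and 4.00 CPM, and its mean of 6.02 CPM per kb was the lowest among the members of the list with an exon length. Of 8 insulin-like peptides only Ilp6 had RNA, at 114.6, 104.6 and 108.4 CPM. Ilp8 stood at 0.401 ± 0.153 CPM and the other 6 were not in the count table.

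Other receptor tyrosine kinases were mostly near the limit. Pvr, the PDGF and VEGF receptor relative that supports hemocyte survival, stood at 1266, 1233 and 1256 CPM, or 188 CPM per kb. Ret and Ror stood at 6.96 ± 0.21 and 5.84 ± 0.77 CPM, Egfr at 0.898, 0.492 and 0.682 CPM, and htl and Ddr were not in the count table. In all, 5 of the 11 in the list, InR included, had RNA, beside 55.8% of all protein-coding genes.

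Markers of other tissues were counted to see what else the cells transcribed, beside the 55.8% of all protein-coding genes with RNA. Of 12 neuron and glia markers 4 had RNA, and only elav, an RNA-binding protein used as a pan-neuronal marker, passed 5 CPM in all libraries, at 60.2, 56.2 and 54.2. The synaptic genes nSyb and brp stood at 0.744 ± 0.143 and 1.72 ± 1.17 CPM, and the glial factor repo at 0.751 ± 0.243. Of 12 muscle markers 3 had RNA, sls, Mef2 and bt at 63.4 ± 2.40, 54.1 ± 5.57 and 14.4 ± 0.72 CPM, while the myosin Mhc stood at 0.305 ± 0.184. Of 12 fat body markers 4 had RNA, led by the lipid transfer gene Mtp at 58.5 ± 2.90, and Lsp1alpha, Lsp2, Fbp1, Fbp2, Yp1 and Yp2 were not in the count table. None of 8 gut markers had RNA, and esg was the only one listed, at 0.482 ± 0.265 CPM. Of 7 epidermis and trachea markers 3 had RNA, with the chitinase Cht2 at 145 ± 5.40 and grh at 3.03 ± 0.57. None of the 8 Hox genes had RNA, and Antp and Abd-B, the only ones listed, stood at 0.413 ± 0.242 and 0.495 ± 0.261 CPM.

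Of 10 germline markers 6 had RNA, beside 55.8% of all protein-coding genes. The piRNA pathway genes krimp, aub, AGO3 and spn-E, which silence transposons, stood at 167 ± 3.94, 134 ± 3.50, 106 ± 2.13 and 67.6 ± 4.75 CPM. The others with RNA were osk, which sets up the germ plasm, at 2.76 ± 0.36 and bgcn, a differentiation factor of germline cysts, at 1.82 ± 0.68. The differentiation factor bam stood at 1.11 ± 0.23, the germ cell genes vas and nos at 0.691 ± 0.203 and 0.651 ± 0.396, and zpg was not in the count table. Of 5 ovarian soma markers 3 had RNA, fs(1)Yb at 73.3 ± 2.77, arx at 20.2 ± 1.39 and piwi, also of the piRNA pathway, at 4.58 ± 0.37 CPM.

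Gene families with narrow use were nearly silent. In 14 such families together, 544 members were annotated, 102 were in the count table and 48 had RNA, or 8.82%, against 48.6% of all genes. None of the 544 reached 100 CPM, 8 reached 10 CPM, and together they took 0.0346% of the counts. RNA was found for 5 of 60 odorant receptors, 8 of 60 gustatory receptors, 7 of 66 ionotropic receptors and 5 of 51 odorant binding proteins. The highest were Obp99a at 29.9 CPM, Ir76a at 29.6, Gr61a at 11.2 and Or43b at 11.1. Pickpocket sodium channels had RNA in 9 of 30, led by ppk29 at 29.4 CPM. No opsin, no chorion or vitelline membrane gene, no salivary glue gene and no Turandot or lysozyme gene had RNA. Of the rest, 6 of 125 cuticle proteins had RNA, led by Cpr92F at 8.54 CPM, 2 of 45 seminal fluid proteins, 4 of 34 testis transcripts, with Mst85C at 26.9 CPM, 1 of 28 digestive proteases and 1 of 7 larval serum and yolk proteins. Of the Enhancer of split complex, which answers to Notch, 3 of 11 had RNA, with E(spl)mbeta-HLH at 13.98 CPM. Of the detoxification families, cytochrome P450s had RNA in 44 of 85 (51.8%), led by Cyp6a20 at 151 CPM. This share was near that of all genes (48.6%) and of protein-coding genes (55.8%). Glutathione S-transferases had RNA in 24 of 35 (68.6%), led by GstD1 at 239 CPM.

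**Figure D3:**
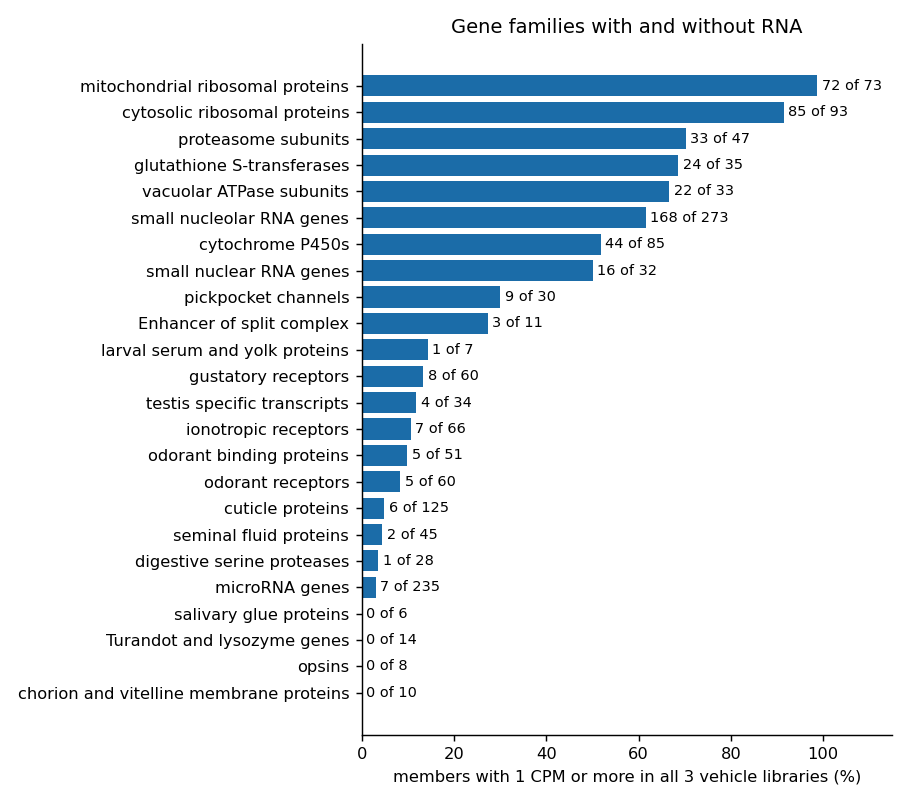
Percent of the annotated members of each family with 1 CPM or more in all 3 vehicle libraries, with the counts beside the bars. Mitochondrial and cytosolic ribosomal proteins (72 of 73 and 85 of 93) stood at the top and 4 families had no member with RNA.

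Several classes could not be read as silent. Of 111 replication histone genes, which lie in repeats, 1 had RNA, at 126 CPM, and 8 of 297 transfer RNA genes had RNA. Reads that match several places are not counted under the defaults of featureCounts, and their part in these low counts was not tested. MicroRNA genes had RNA in 7 of 235, the highest being mir-2493 at 3.86 CPM, in a library not made for small RNAs. Ribosomal RNA had been depleted, and nearly all of the rRNA biotype, 3.74% ± 0.21 of counts, was mt:lrRNA.

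By biotype, protein-coding genes took 89.1%, 87.6% and 89.8% of counts in V1, V2 and V3. Small nucleolar RNAs (snoRNA), which guide chemical marking of ribosomal RNA, took 3.49%, 4.14% and 2.82%. Small nuclear RNAs (snRNA) took 1.55%, 1.98% and 1.52%. V2 was highest and V3 lowest for both classes. Most snRNA genes encode parts of the spliceosome, but snRNA:7SK, which does not, took 0.947% of counts on average. Of 288 snoRNA genes 181 had RNA, with snoRNA:Psi28S-3342 at 1806 ± 348 CPM and snoRNA:Or-CD2 at 1567 ± 504. snRNA:U1:82Eb stood at 609 ± 141. Long noncoding genes, named lincRNA in the gene sheet, took 2.15% of counts in every library, and 517 of 2366 had RNA. The most counts fell on the RNA components of enzymes, RNaseMRP:RNA at 2168 ± 112 CPM and RNaseP:RNA at 2060 ± 97.7, followed by CR44962 at 1193 ± 37.9. The 2 genes for 7SL, the RNA of the signal recognition particle, stood at 22.7 ± 12.3 and 32.2 ± 2.07 CPM. Both have 299 bp of exon, and reads that match both would not be counted under the defaults of featureCounts. The part of such reads in these levels was not tested, so 7SL cannot be read as scarce. The stress RNA Hsromega stood at 243 ± 6.81 CPM. Pseudogenes, transfer RNAs and pre-miRNAs took 0.0968%, 0.00699% and 0.00241% of counts.

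Counts of genes that overlap on opposite strands could not be told apart. The labelled library kit is not named as one that marks strand, and the counting was set to the reverse strand. In 19 pairs of listed genes the partners shared 80% or more of both exon lengths, and 14 of the 17 pairs with both at 1 CPM or more had levels per kb within 1.25-fold of each other. Spt-I, a sphingolipid enzyme, and CR45142 on the other strand stood at 191, 192 and 198 CPM and at 198, 198 and 205 CPM. dUTPase and CR45778 averaged 151 and 158 CPM. The same held for small RNAs inside other genes. The 140 bp of snoRNA:Or-CD2 lie within an exon of CG8078, and they stood at 1410, 2131 and 1160 CPM against 1460, 2127 and 1178 CPM, with the same library high and the same low. snoRNA:Or-aca4 and CG44403 stood at 1552, 1798 and 1295 CPM and at 1589, 1768 and 1335 CPM. Of 517 lincRNA genes with RNA, 311 shared 10% or more of their exons with a listed gene on the other strand, such as CR44962 with Karl at 1839 ± 62.0 CPM. Without such genes the lincRNA share was 1.08% of counts.

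Male flies double the output of their X chromosome through the MSL complex, which holds 2 RNAs, roX1 and roX2. All 7 dosage compensation genes had RNA, beside 48.6% of all genes. roX2 stood at 781, 800 and 803 CPM and roX1 at 48.7, 50.1 and 57.1 CPM. msl-1 stood at 160 ± 1.72 CPM, the acetyltransferase mof at 112 ± 3.17, msl-2, the subunit made in males, at 85.9 ± 4.79, the helicase mle at 77.9 ± 4.602 and msl-3 at 25.8 ± 1.20. Of the sex determination genes all 5 had RNA, with fru at 242 ± 6.12, Sxl at 72.8 ± 2.57 and dsx at 4.14 ± 0.52 CPM. Although the line is labelled male, none of 12 Y-linked genes was in the count table, and the 2 listed genes on the Y, CR41506 and CR41509, stood at 1.75 ± 0.13 and 1.29 ± 0.16 CPM. Most of the Y-linked genes are used in the testis, so their absence from the table does not show whether the Y was present.

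Counts were divided over chromosome arms as 18.0% on 2L, 21.6% on 2R, 15.05% on 3L, 22.4% on 3R, 16.3% on X, 1.51% on the small chromosome 4 and 5.08% on mitochondrial DNA, with an SD of at most 0.183 percentage points. The share of protein-coding genes with RNA was 62.3% on X (1354 of 2175), 88.6% on 4 (70 of 79) and between 52.2% and 55.7% on the 4 large arms. The median level per kb of exon over the protein-coding genes with RNA was 0.851, 0.848 and 0.855 times that of the 4 arms for X (1326 genes) and 1.39, 1.39 and 1.41 times for chromosome 4 (70 genes). Genes on X and on 4 had longer exons, with medians of 2395 and 4450 bp against 2066 bp, and by CPM without division by length the ratios were 1.03 ± 0.02 and 2.58 ± 0.07, which for X reversed the order. With every gene that had a count in all libraries, the ratio per kb was 0.976 for X. The X genes at 1 CPM or more ranged from 7.04 to 35.5 CPM per kb between quartiles. The most abundant on 4 were RpS3A, ATPsyn-beta of the mitochondrial ATP synthase and PlexA, a semaphorin receptor, at 2435 ± 55.3, 1059 ± 22.3 and 840 ± 28.5 CPM. The number of copies of each chromosome in these cells was not measured here.

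The RNA levels were set beside the accessible DNA of vehicle cells from the same study. ATAC-seq uses a transposase to mark open DNA, and the deposited list for vehicle holds 9560 peaks found on the pooled vehicle samples. The share of protein-coding genes with a peak within 1 kb of the annotated start was 12.6% for 4720 genes not in the count table, 17.9% for 1577 genes under 1 CPM per kb, 44.5% for 2023 genes at 1 to 10, 77.1% for 4786 genes at 10 to 100 and 91.7% for 578 genes at 100 or more. Neighboring genes can share a peak, and the peaks come from other cells of the same treatment. Of the 80 ribosomal protein genes with RNA and an exon length, 70 had such a peak (87.5%). The 48 genes at 100 CPM per kb or more without a peak included 10 ribosomal protein genes, RpS27A highest among them, and the antimicrobial genes DptB at 566 and edin at 508 CPM per kb, named after their values were seen.

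**Figure D4:**
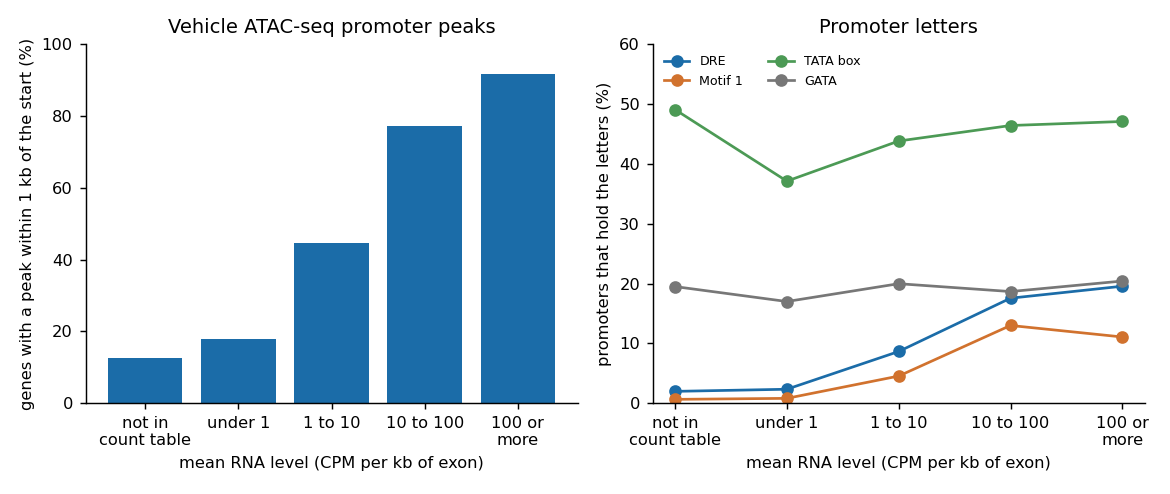
Left, percent of protein-coding genes with a vehicle ATAC-seq peak within 1 kb of the start, and right, percent of promoters with each set of letters, in 5 classes of mean RNA level. Peaks increased from 12.6% to 91.7% over the classes and DRE letters from 1.99% to 19.6%, whereas the TATA letters lay between 37.1% and 49.0%.

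Promoter letters were searched between 250 bases before and 50 bases from the annotated start on, on both strands. A match could lie anywhere in this window, so the letters TATAAA need not be a TATA box. The letters of the DNA replication-related element and of Motif 1 are known from constitutively active fly genes. All of the motifs were chosen after shares had been seen. The DNA replication-related element, DRE, TATCGATA, was in 1.99% of promoters of genes not in the count table, 2.35% under 1 CPM per kb, 8.65% at 1 to 10, 17.6% at 10 to 100 and 19.6% at 100 or more, against 9.20% of all promoters. Motif 1, GGTCACACT, was in 0.657%, 0.824%, 4.55%, 13.0% and 11.1%, against 6.01% of all. The TATA box letters TATAAA were in 49.0%, 37.1%, 43.8%, 46.4% and 47.1%, and GATAAG in 19.5%, 17.0%, 19.97%, 18.7% and 20.4%. Neither rose from class to class as the DRE did, and both were lowest under 1 CPM per kb. The DRE was in 30.0% of the 80 ribosomal protein genes with RNA and in 18.0% of the other genes at 100 CPM per kb or more.
The 100 bases before the start (dm6) are shown for the most abundant genes that hold the DRE there, in capitals, to let the letters be seen in place.
RpS25 (chr3R:11216288-11216387, - strand): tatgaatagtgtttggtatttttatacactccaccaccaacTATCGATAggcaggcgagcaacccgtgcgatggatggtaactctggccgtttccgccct
RpS30 (chr3R:20850416-20850515, + strand): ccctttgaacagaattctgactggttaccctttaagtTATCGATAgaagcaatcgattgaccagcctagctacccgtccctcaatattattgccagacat
RpL37a (chrX:15139368-15139467, - strand): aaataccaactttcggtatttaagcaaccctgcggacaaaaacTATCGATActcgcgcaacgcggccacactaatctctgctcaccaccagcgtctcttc
The same stretch is shown for the most abundant genes with Motif 1, in capitals on either strand.
RpL7 (chr2L:10200904-10201003, + strand): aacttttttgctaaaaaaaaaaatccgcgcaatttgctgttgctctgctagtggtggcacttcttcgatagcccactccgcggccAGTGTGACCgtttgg
sta (chrX:1483414-1483513, - strand): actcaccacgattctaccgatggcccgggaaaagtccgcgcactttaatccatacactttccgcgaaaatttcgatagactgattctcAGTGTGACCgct
RpLP1 (chr2L:419852-419951, + strand): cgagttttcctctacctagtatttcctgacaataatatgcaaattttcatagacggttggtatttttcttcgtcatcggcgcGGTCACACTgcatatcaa
All 6 genes had a vehicle ATAC-seq peak at the promoter, and their RNA stood between 1500 and 2514 CPM per kb. A match describes the reference sequence and shows no binding.

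The libraries agreed closely for messengers and less for small stable RNAs. Over the 6699 genes at 10 CPM or more the median coefficient of variation (CV, SD divided by mean) was 4.30%. The SD expected from counting error alone had a median of 4.37% of the mean. An SD from 3 libraries more often falls below its true value than above it. These medians therefore do not show that spread beyond counting was absent. By class the median CV was 4.17% for 6295 protein-coding genes, 5.62% for 246 lincRNA genes, 22.3% for 126 snoRNA genes and 24.0% for 11 snRNA genes. For the last 2 classes the SD expected from counting was 3.11% and 1.91% of the mean. V2 was highest for 109 of the 126 snoRNA genes and for all 11 snRNA genes, and V3 was lowest for 118 and 9. The median deviation from a gene's own mean, on the log2(CPM + 0.5) scale, was 0.03, 0.28 and -0.31 in V1, V2 and V3 for snoRNA genes and 0.00, -0.03 and 0.02 for protein-coding genes.

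**Figure D5:**
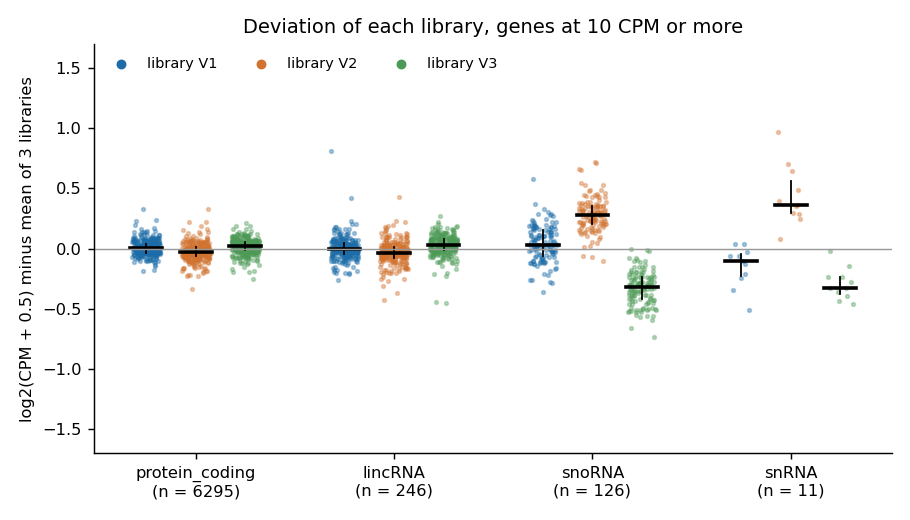
Deviation of each library from a gene's mean over the 3 libraries, on the log2(CPM + 0.5) scale, for genes at 10 CPM or more by biotype, with medians and quartiles in black and at most 300 points drawn per group. Protein-coding genes centered near 0 in every library, whereas snoRNA genes stood at 0.28 in V2 and -0.31 in V3.

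Of the 106 genes with a CV above 20%, 87 were snoRNA or snRNA genes and 13 were protein-coding. The 10 most variable were 28SrRNA-Psi:CR45853 (CV 71.1%), snRNA:U5:23D, 2SrRNA:CR45864, 7SLRNA:CR32864, CG33181, snoRNA:Psi28S-1135a, snoRNA:Psi28S-2622, snRNA:U5:63BC, snoRNA:Psi28S-3405c and snoRNA:CG32479-a (CV 42.5%). The only messenger among them, CG33181, stood at 250, 379 and 117 CPM, with V2 high and V3 low as in the snoRNA genes. 28SrRNA-Psi:CR45853, a pseudogene by biotype, and 2SrRNA:CR45864, of the rRNA biotype, stood at 111, 72.5 and 16.7 CPM and at 23.0, 14.2 and 6.53 CPM, highest in V1. The part of library preparation in these differences was not tested. The chi-square per degree of freedom between pairs of libraries was 3.47 for V1 and V2, 2.79 for V1 and V3 and 6.33 for V2 and V3, so each pair differed by more than sampling noise and none was counted as 1 library deposited again. Repeat preparations of 1 culture could also differ in this way. The common biological coefficient of variation, the spread beyond counting estimated by edgeR from these libraries alone, was 5.07%. It was 2.86% without the snoRNA and snRNA genes, an alternative added after seeing their spread.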

How the data were processed

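RNA-seq of 3 vehicle libraries of starved S2 cells was described, and insulin libraries entered no result. The authors depleted ribosomal RNA, aligned reads with STAR to the BDGP6 assembly, and used featureCounts on the reverse strand for counts per gene, with versions not given in the sources. The deposited counts are whole numbers, not normalized. The authors' insulin comparison (fold changes, p-values) was not used, and 3 count columns of the insulin group served only to find the table's filter. The authors called ATAC-seq peaks on pooled vehicle samples with dm6, and the deposited score per peak served only to rank peaks. CPM used library totals. Exon lengths came from Ensembl release 115, whose starts and ends equal the gene sheet's for 16978 of 17253 shared genes. The reference sequence is RefSeq's of the same assembly. Genes were named by rule: the 25 highest by CPM, the 15 highest coding genes per kb, the defining and the 6 highest members of each of 30 lists, the 3 highest of each of 28 families, biotype and chromosome, and the 10 most variable. Members and lists were chosen with earlier results of these data known. With 1 group, no test between groups was made. Levels are given as mean ± SD. Dispersion was estimated with edgeR 4.0.16 (R 4.3.3), with DESeq2 1.42.0 as an alternative. Python 3.11.15 was used with pandas 2.3.3, scipy 1.17.1 and pysam 0.24.0. Intervals were not given for levels, and 3 libraries limit their precision. A few genes that meet the rule are not reported here.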

Additional observations from a re-analysis of the deposited data

How the results depend on the processing

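Of 148 values under alternatives, 113 stayed within the library SD, within 1.5 times for counts, or within the 95% Wilson interval for peak shares. Leaving out any library moved none beyond these limits. Where the limit was the library SD, that outcome was fixed, because dropping 1 of 3 libraries cannot shift their mean by the SD. The peak share of genes not in the count table uses no level from these libraries, so it could not move either. Genes with RNA numbered 8575 to 8686 with 1 library left out. Without rRNA and mitochondrial genes in the total, the 10 most abundant genes took 6.29%, 533 genes held 50% of counts, protein-coding genes took 92.2% and lincRNA 2.27%, and 2L, 2R, 3L, 3R, X and 4 took 19.0%, 22.8%, 15.9%, 23.6%, 17.2% and 1.595%. The lincRNA share was 1.08% without genes that overlap the other strand, an alternative added after seeing the data. The X ratio was 0.860 at 5 CPM or more, 0.976 with any count, 1.03 by CPM, and 0.822, 0.782 and 0.940 against 2L, 2R and 3L alone. The chromosome 4 ratio was 1.47, 1.78, 2.58, 1.35, 1.28 and 1.54 under the same settings. At 5 CPM no crystal cell marker (0) and 3 prohemocyte markers had RNA, and at 1 CPM per kb 0 crystal cell markers. Any count gave 102 members of the silent families. The spread was 0.01% by DESeq2's median gene-wise value, which is at that tool's lower bound, 2.86% without snoRNA and snRNA genes, and 4.22% to 6.27% with 1 library left out. With peaks within 3 kb, shares for genes not in the table, at 1 to 10 and at 100 CPM per kb or more were 21.9%, 62.1% and 94.5%, and with the higher-scored peaks 8.09%, 21.8% and 66.4%. No paired analysis was possible because only 1 group was described and its columns carry no replicate number.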

Other observations

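Several abundant messengers belong to genes best known from other tissues, and they are named here after their values were seen. Ten-m, a teneurin that matches partner cells at synapses, stood at 2362, 2254 and 2316 CPM in V1, V2 and V3 and ranked 30 of the 10287 listed genes by mean CPM. The axon repellent sli (slit) stood at 1371, 1329 and 1383 CPM, ap (apterous), which specifies the dorsal wing, at 1358, 1312 and 1399 CPM, and prominin-like, a relative of the mammalian stem cell marker prominin, at 1711, 1700 and 1762 CPM. The zinc finger factor zfh2 on chromosome 4 stood at 744 ± 10.8 CPM (SD, n = 3). The coefficient of variation over the libraries ran from 1.45% for zfh2 to 3.18% for ap.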
